A study of Mus musculus with 19 samples.

Results

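The comparison is between mouse embryonic stem cells (ESC) that lack the miR-290 cluster and ESC that lack the miR-302 cluster. Its members are the 4 ESC libraries among the 19 libraries of the series, chosen by their labels: 2 of miR-290 knockout (KO) ESC and 2 of miR-302 KO ESC. All cells grew in medium with LIF and fetal bovine serum. Each group carries the deletion it is named for and no other stated allele, and the labels give no strain, sex, passage or clone for the ESC. The study's design text says that biological replicates were derived independently except for wild-type (WT) controls, with colonies as its example. It does not say by name whether replicates 1 and 2 of an ESC group are separate lines, so part of the spread between them may be technical. No WT ESC library was used, so a difference can be a gain in one knockout or a loss in the other. The remaining 15 libraries are induced pluripotent stem cells (iPSC), reprogrammed from fibroblasts of embryos by the factors Oct4, Sox2 and Klf4 and collected more than 18 passages later: WT (3), miR-290 KO (4, from 2 colonies), miR-302 KO (4, from 2 colonies) and double KO (4, from 2 colonies). They served here to estimate the spread of each gene and as a second comparison of the same genotypes that shares no library with the ESC. The p-values below therefore rest on a spread pooled over ESC libraries, iPSC colonies and WT libraries. The WT (3) entered as separate samples, although the design text excepts WT controls from independent derivation. Where such spread is only technical, the p-values are too small.

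Both clusters encode microRNAs of pluripotent cells. A microRNA guides Argonaute proteins to messenger RNAs, mainly through pairing of its seed, bases 2 to 8, with the 3′ untranslated region (3′UTR), and the paired message is repressed or degraded. The miR-290 cluster is the main source of microRNAs in naive mouse ESC, and the miR-302 cluster is best known from the primed state that follows it in the embryo. Members of both share a seed, so either knockout leaves the other cluster as a possible source of the same seed.

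The mature 3′ arms show what the clusters share and where they differ. RefSeq (GRCm38.p6) places the 3′ arms listed here of the miR-290 cluster between 3218674 and 3220837 of chromosome 7, and those of the miR-302 cluster between 127545275 and 127545687 of chromosome 3, all on the plus strand. Each is printed 5′ to 3′ with bases 2 to 8 in capitals.
miR-291a-3p, chr7:3218968-3218989: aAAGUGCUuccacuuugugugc
miR-294-3p, chr7:3220691-3220712: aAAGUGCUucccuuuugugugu
miR-295-3p, chr7:3220815-3220837: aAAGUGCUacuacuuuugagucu
miR-302b-3p, chr3:127545275-127545297: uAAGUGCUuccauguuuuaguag
miR-302d-3p, chr3:127545665-127545687: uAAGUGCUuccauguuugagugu
miR-302c-3p, chr3:127545406-127545427: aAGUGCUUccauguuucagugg
miR-290a-3p, chr7:3218674-3218697: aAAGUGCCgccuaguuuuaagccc
miR-291b-3p, chr7:3219529-3219550: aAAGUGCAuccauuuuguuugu
miR-293-3p, chr7:3220390-3220411: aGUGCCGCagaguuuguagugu
The first 5 of these, 3 from the miR-290 cluster and 2 from the miR-302 cluster, have the seed AAGUGCU. In miR-302c-3p as RefSeq lists it, the same letters begin 1 base earlier, so that bases 2 to 8 read AGUGCUU. The seed is AAGUGCC in miR-290a-3p, AAGUGCA in miR-291b-3p and GUGCCGC in miR-293-3p.

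Expression was measured by 3′ messenger RNA sequencing, which reads 1 tag near the end of each transcript, from 200 ng of total RNA. The deposited values are log2 values per gene, and whole reads could be recovered from them for 12240 of 12778 genes. Levels below are CPM, a gene's reads scaled to a library total of 1000000 recovered reads, and differences are between the mean deposited log2 values, miR-290 KO minus miR-302 KO. The ESC libraries held 14992616 and 15345151 recovered reads in the miR-290 KO and 14446915 and 16742995 in the miR-302 KO, so that 1 read is 0.0597 to 0.0692 CPM. The standard deviation (SD) over genes of the log2 difference between replicates was 0.61 in the miR-290 KO ESC and 1.06 in the miR-302 KO ESC, the wider of the 2 groups. The markers of ESC were read in all 4 libraries: Pou5f1, which encodes Oct4, had 995 and 772 against 757 and 774 CPM, and Sox2 had 472 and 431 against 530.2 and 421 CPM. None of the 10 listed markers was called (1 at an unadjusted p under 0.05, as were 1632 of all 12778 genes). Over all genes, both miR-290 KO libraries lay lower in 18.8% and higher in 27.8%. Of the 10 markers, the groups overlapped in 7, Nanog (−0.66) and Zfp42 (−0.63 ± 0.30) had both miR-290 KO libraries lower, and Dppa5a (0.55 ± 0.33) had both higher, as log2 differences.

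The miR-290 locus was examined through D7Ertd143e, a long noncoding RNA that RefSeq places at chr7:3218784-3221015, overlapping the cluster. It was looked up after its values were seen. D7Ertd143e had 66.6 and 53.4 CPM in the miR-290 KO and 143.1 and 159.8 CPM in the miR-302 KO (log2 difference −1.35, SE 0.27, adjusted p = 0.0483). Both miR-290 KO libraries lay below both miR-302 KO libraries. Among iPSC libraries, D7Ertd143e ranged from 157 to 209 CPM in WT and from 154 to 397 CPM in miR-302 KO. It ranged from 42.3 to 68.5 CPM in miR-290 KO iPSC and from 20.3 to 34.6 CPM in double KO iPSC. The call was made in 7 of 21 alternative fits and was lost when any 1 of the 4 ESC libraries was left out. The RNA was thus still present in the libraries labelled miR-290 KO, at lower values. Whether its 3′ tag lies inside the deleted part is not given in the sources used here, so its level cannot check the deletion. For the miR-302 cluster, which lies inside Larp7, no transcript of its own was analysed here, and Larp7 had 379.7 and 346 against 299.9 and 334 CPM.

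With 13 samples in 1 limma fit (the libraries of an iPSC colony averaged) and Benjamini-Hochberg adjustment over 12778 genes, 75 genes differed between the ESC groups at an adjusted p under 0.05, which is 0.587% of the genes tested. Of these, 48 (0.376%) were higher in the miR-290 KO ESC and 27 (0.211%) were higher in the miR-302 KO ESC. All 75 differed by at least 1.09 on the log2 scale, and in all 75 the libraries of the groups did not overlap. Without a test, the libraries failed to overlap in far more genes: both miR-290 KO libraries lay above both miR-302 KO libraries in 27.8% of all genes and below them in 18.8%. The median difference of all genes was 0.070. The count of calls depended on the samples that estimate the spread: the 4 ESC libraries alone gave no call in limma (1526 genes at an unadjusted p under 0.05), the fit without miR-290 KO ESC replicate 1 or replicate 2 gave 4 calls each, and the fit without miR-302 KO ESC replicate 1 or replicate 2 gave 357 and 19. Of the 75 genes, 16 lost the call when any 1 of the 4 ESC libraries was left out.

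**Figure D1:**
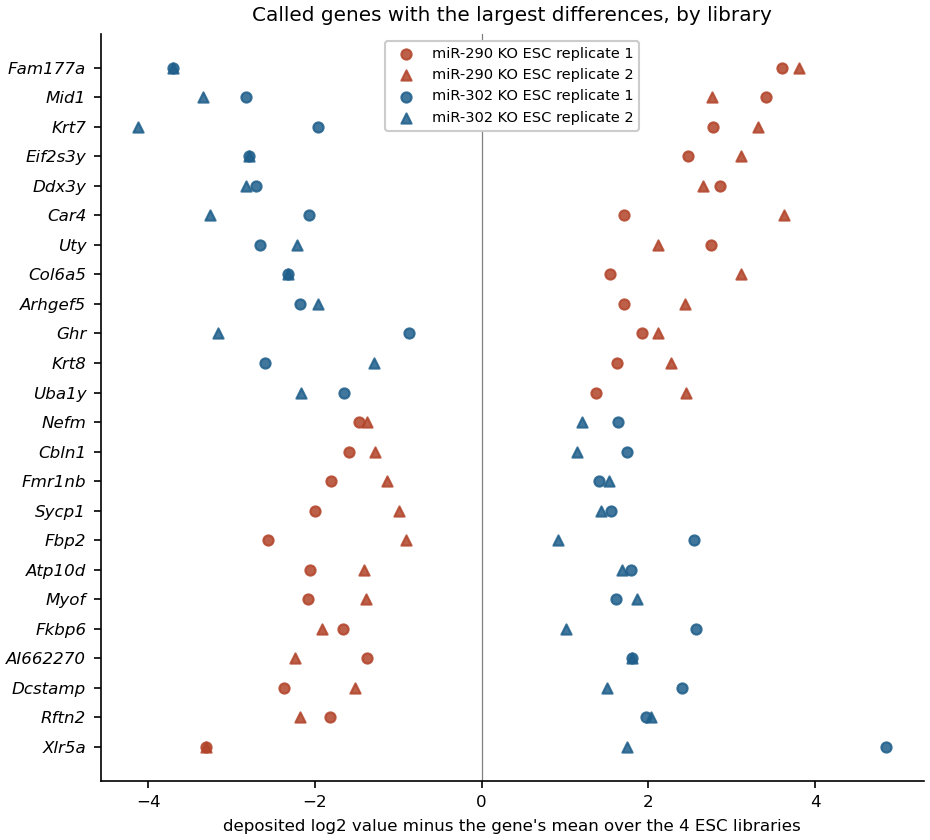
Each point is 1 ESC library's deposited log2 value for the gene on the vertical axis, minus that gene's mean over the 4 ESC libraries (horizontal axis, log2 scale). The 12 called genes with the largest difference in each direction are shown, and in each of them the 2 groups do not overlap. The 2 replicates of the miR-302 KO lie far apart in Xlr5a, Ghr and Krt7.

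The smallest adjusted p-values in limma were those of genes of the sex chromosomes. Ddx3y, a Y-linked RNA helicase, had 17.5 and 15.2 CPM in the miR-290 KO and 0.208 and 0.179 CPM in the miR-302 KO (log2 difference 5.53, SE 0.32, adjusted p = 6.2e-06). It was called in 19 of 21 alternative fits. In limma the call was lost with the 4 ESC libraries alone (adjusted p = 0.0525). It was also lost with each of the 19 libraries as a sample (adjusted p = 0.153), where the libraries of a colony are not averaged. Eif2s3y, a Y-linked translation initiation factor, had 6.14 and 9.58 CPM in the miR-290 KO and 0 and 0 CPM in the miR-302 KO (log2 difference 5.59, SE 0.63, adjusted p = 0.00276). Against 3 reads over the miR-302 KO group, the floor used for a count of 0, Eif2s3y was at least 81.9-fold higher in the miR-290 KO. Uty, a Y-linked relative of the histone demethylase Kdm6a, had 6.803 and 4.301 CPM in the miR-290 KO and 0 and 0.0597 CPM in the miR-302 KO (log2 difference 4.87, SE 0.61, adjusted p = 0.00483), and its 1 read in the miR-302 KO gave a ratio of 173-fold, with a 95% interval of 30.6 to 6862 from exact binomial counting error alone. Uba1y, a ubiquitin-activating enzyme gene of the Y, had 1.73 and 3.84 CPM in the miR-290 KO and 0.0692 and 0 CPM in the miR-302 KO (log2 difference 3.83, SE 0.72, adjusted p = 0.0397). The 4 Y-linked genes called were therefore read in both miR-290 KO libraries and were at or near 0 in both miR-302 KO libraries. Xist, the RNA that silences an X chromosome, had 0.867 and 0.391 against 3.05 and 0 CPM, and so was low in all 4.

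In iPSC the Y-linked genes did not follow the genotype in every library. Ddx3y was between 45.6 and 60.2 CPM in the 4 miR-290 KO iPSC libraries, between 9.06 and 9.88 CPM in WT iPSC, and at most 0.306 CPM in the double KO iPSC. In the miR-302 KO iPSC colony 1 gave 0 CPM in one library and 15.9 CPM in the other, and colony 2 gave 14.1 and 0.34 CPM. Y-linked RNA therefore varied between libraries of 1 colony there. Averaging the libraries of a colony leaves that variation out of the spread, so the adjusted p of Ddx3y in the main fit does not reflect it. In the ESC, presence of Y-linked RNA and the genotype cannot be told apart.

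Genes that RefSeq places on the X were called in both directions. Whether their reads come from the X alone was not tested. Mid1, which encodes a ubiquitin ligase bound to microtubules, had 17.3 and 11.01 CPM in the miR-290 KO and 0.0692 and 0 CPM in the miR-302 KO (log2 difference 6.17, SE 0.59, adjusted p = 0.000866). Its single read in the miR-302 KO gave a ratio of 441-fold, with a 95% interval of 78.7 to 17461 from exact binomial counting error alone. Mid1 and Ddx3y were the only 2 genes that were called without each of the 4 ESC libraries in turn. In the other direction, Fmr1nb had 11.1 and 17.7 CPM in the miR-290 KO and 103 and 113 CPM in the miR-302 KO (log2 difference −2.94, SE 0.32, adjusted p = 0.00273), 7.48-fold lower in the miR-290 KO, and was called in 19 of 21 alternatives. Xlr5a, of an X-linked gene family with near-identical copies, had 0 and 0 CPM in the miR-290 KO and 45.7 and 5.19 CPM in the miR-302 KO (log2 difference −6.61, SE 1.25, adjusted p = 0.0397). No read of it was recovered in the miR-290 KO, at least 242-fold below the miR-302 KO, and the 2 miR-302 KO libraries themselves differed widely.

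Among autosomal genes, those that were lower in the miR-290 KO ESC included a pluripotency factor and enzymes of sugar metabolism. Nr5a2, an orphan nuclear receptor that binds the regulatory DNA of Oct4, had 23.01 and 13.2 CPM in the miR-290 KO and 81.7 and 72.5 CPM in the miR-302 KO (log2 difference −2.15, SE 0.28, adjusted p = 0.00581). The groups were 4.26-fold apart, and the call was made in 19 of 21 alternatives. Pfkp, the platelet form of phosphofructokinase, had 31.9 and 35.5 CPM in the miR-290 KO and 241 and 146 CPM in the miR-302 KO (log2 difference −2.49, SE 0.31, adjusted p = 0.00483), a 5.74-fold difference called in 18 of 21. Fbp2, a fructose bisphosphatase that works in the opposite direction to phosphofructokinase, had 1.07 and 3.71 against 41.9 and 13.5 CPM (−3.47 ± 0.66, adjusted p = 0.041), called in 6 of 21. Psat1, an enzyme of serine synthesis, differed by −1.20 ± 0.22, adjusted p = 0.0397, with 216 and 204 against 499 and 454 CPM, and was called in 11 of 21. Fbp2 and Psat1 both lost the call when any 1 of the 4 ESC libraries was left out.

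Rftn2, Myof and AI662270 were lower in the miR-290 KO by wide margins. Rftn2, a membrane raft protein, had 5.67 and 4.37 CPM in the miR-290 KO and 79.4 and 83.4 CPM in the miR-302 KO (log2 difference −4.002, SE 0.49, adjusted p = 0.00483), 16.2-fold lower in the miR-290 KO. Myof, which encodes myoferlin, a membrane repair protein, had 5.203 and 8.54 CPM in the miR-290 KO and 68.8 and 82.5 CPM in the miR-302 KO (log2 difference −3.48, SE 0.47, adjusted p = 0.00758), 11.01-fold lower. In both genes the groups lay far apart compared with the replicates. AI662270 had 9.07 and 4.89 against 82.4 and 82.6 CPM (−3.61 ± 0.57, adjusted p = 0.0211) and Atp10d, a phospholipid flippase, had 0.4002 and 0.717 against 7.82 and 7.35 CPM (−3.47 ± 0.59, adjusted p = 0.0263). Genes best known from neurons were called in both directions. Nefm, a neurofilament subunit, had 3.54 and 3.78 against 31.4 and 23.3 CPM (−2.85 ± 0.46, adjusted p = 0.0241). Cbln1, a secreted synapse organizer, had 1.33 and 1.69 against 14.7 and 9.74 CPM (−2.88 ± 0.47, adjusted p = 0.0245). Neurog1, a proneural factor, was higher in the miR-290 KO (log2 difference 3.46, adjusted p = 0.0241) and was called in 16 of 21 alternatives. Dcstamp, known from the fusion of osteoclasts, was low throughout, with 0 and 0.1303 against 4.22 and 2.21 CPM (−3.90 ± 0.78, adjusted p = 0.0483). Its 2 reads in the miR-290 KO gave a ratio of 47.7-fold, with a 95% interval of 12.8 to 399 from exact binomial counting error alone.

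Genes higher in the miR-290 KO ESC included keratins and several genes that were near 0 in the miR-302 KO. Krt8, a keratin of simple epithelia, had 231 and 362 CPM in the miR-290 KO and 12.04 and 30.3 CPM in the miR-302 KO (log2 difference 3.89, SE 0.74, adjusted p = 0.0397). Both miR-290 KO libraries were far higher, but the call was lost when any 1 of the 4 ESC libraries was left out, and it was made in 8 of 21 alternatives. Krt7, a keratin of glandular and trophoblast epithelium, had 19.1 and 27.96 CPM in the miR-290 KO and 0.554 and 0 CPM in the miR-302 KO (log2 difference 6.09, SE 0.91, adjusted p = 0.0152), 85.1-fold higher. Car4, a membrane carbonic anhydrase, had 4.94 and 19.1 CPM in the miR-290 KO and 0.208 and 0 CPM in the miR-302 KO (log2 difference 5.33, SE 1.07, adjusted p = 0.0483), and was called in 5 of 21. From its 3 reads in the miR-302 KO, the ratio was 126-fold, with a 95% interval of 42.7 to 613 from exact binomial counting error alone. Col6a5, a chain of collagen VI, had 2.201 and 6.84 against 0 and 0 CPM (4.65 ± 0.88, adjusted p = 0.0397), at least 47.3-fold higher. Ghr, the growth hormone receptor, had 5.34 and 6.13 against 0.623 and 0 CPM (4.03 ± 0.76, adjusted p = 0.0397), and Arhgef5 had 9.54 and 15.97 against 0.485 and 0.597 CPM (4.15 ± 0.74, adjusted p = 0.0374).

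A more even difference was seen in Litaf, a protein of endosomes and lysosomes. Litaf had 92.98 and 96.1 CPM in the miR-290 KO and 29.8 and 22.8 CPM in the miR-302 KO (log2 difference 1.84, SE 0.23, adjusted p = 0.00483), 3.59-fold higher in the miR-290 KO, and was called in 17 of 21. Fam177a had the largest difference of all, but its whole reads were not recovered, as happens where reads are shared with a similar gene. Its deposited log2 values were 3.24 and 3.45 in the miR-290 KO and −4.07 and −4.07 in the miR-302 KO (log2 difference 7.41, SE 1.14, adjusted p = 0.0165). Gm14296, a gene of a multicopy zinc finger family on chromosome 2, was the largest in the other direction (log2 difference −7.25, SE 0.95, adjusted p = 0.00584). Reads of both may be divided among copies, so their differences are uncertain.

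The same genotypes were compared in iPSC, with no library shared. Of the 75 genes called between ESC, 71 had the same sign of difference between miR-290 KO and miR-302 KO iPSC (94.7%), against 67.3% of all 12778 genes, and 38 were also called there in the same direction. Those 38 are 50.7% of the ESC calls and 13.2% of the 287 iPSC calls (2.25% of genes were called between iPSC). The 287 moved with the setting, to 23 with estimated sample weights and 1061 with each of the 19 libraries as a sample. The 38 and both shares of calls hold for the main fit alone. In 66 of the 75, the iPSC colonies lay apart the same way, against 34.8% of all genes. Over all genes, miR-290 KO iPSC colonies lay above the miR-302 KO colonies in 32.2% and below them in 12.3%. Without genes of X and Y, 61 of 65 called genes kept the sign. Both comparisons used 1 estimate of spread per gene, so a gene with little spread is more readily called in both.

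The sizes in both cell types can be set side by side. Pfkp differed by −2.49 in ESC and −2.48 in iPSC, Rftn2 by −4.002 and −4.45, Nr5a2 by −2.15 and −1.88, Fmr1nb by −2.94 and −3.50, and Lamp2, a lysosomal membrane protein, by 1.16 and 1.16. Litaf differed by 1.84 in ESC and less in iPSC, by 1.10. The 4 genes with opposite signs were Gm14296 (−7.25 in ESC and 1.97 in iPSC), Gm5512 (3.15 and −0.38), Ust (3.62 and −0.16) and Ap1m2 (2.76 and −0.055). Myof differed by −3.48 in ESC and −0.66 in iPSC. The test of the difference itself, ESC contrast minus iPSC contrast in the same limma fit, called no gene (0.0% of 12778, lowest adjusted p = 0.174), with 552 genes at an unadjusted p under 0.05. For Gm14296 its adjusted p was 0.174 and for Myof 0.984, so neither departure was called.

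**Figure D2:**
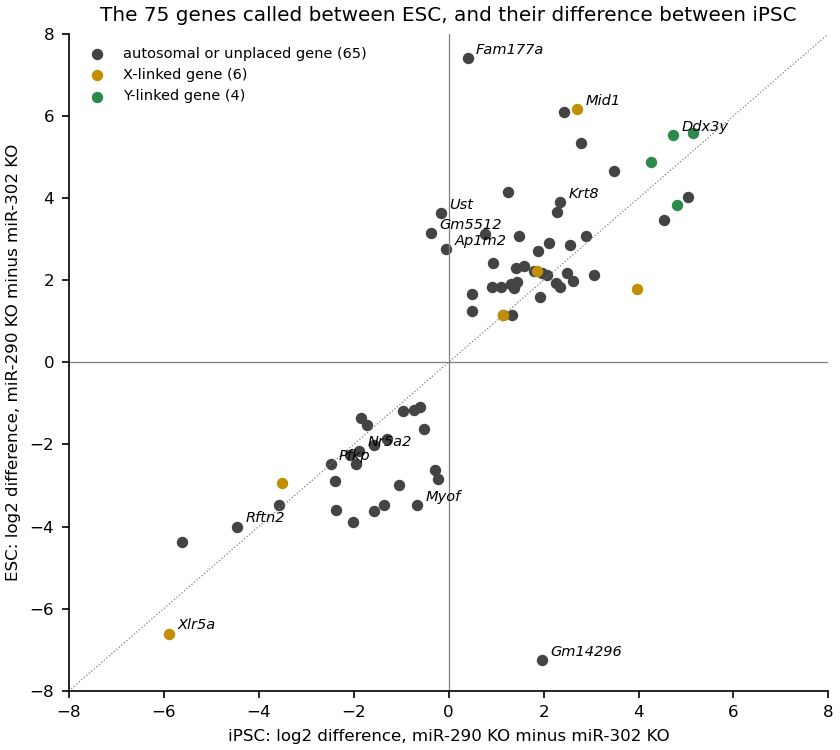
Each point is 1 of the 75 genes called between ESC; the vertical axis is its log2 difference between miR-290 KO and miR-302 KO ESC and the horizontal axis the same difference between iPSC. Colours mark genes of the X, the Y and other chromosomes, and the dotted line marks equal differences. All but 4 genes have the same sign on both axes.

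Genes reported elsewhere as targets of the shared seed mostly had higher values in the miR-290 KO ESC, with 1 call. Of the 20 listed genes, all 20 were in the matrix. In 15 the difference was positive, in 10 both miR-290 KO libraries lay above both miR-302 KO libraries (27.8% of all genes did), and in 2 they lay below (18.8%). The list's median difference was 0.71, against 0.070 for all genes, and in iPSC it was 0.85. The called member was Dkk1, a secreted inhibitor of Wnt signalling, with 7.67 and 10.9 CPM in the miR-290 KO and 0.8998 and 0.896 CPM in the miR-302 KO (log2 difference 3.13, SE 0.59, adjusted p = 0.0397), 10.4-fold higher in the miR-290 KO.

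Other members had values apart without passing the adjusted threshold. Cdkn1a, the cyclin-dependent kinase inhibitor p21, had 390.0 and 310.1 CPM in the miR-290 KO and 145 and 163 CPM in the miR-302 KO (log2 difference 1.17, SE 0.24, adjusted p = 0.0555). Dazap2 had 269.9 and 224 against 102 and 116 CPM (1.16 ± 0.28, adjusted p = 0.0961), Ei24, a p53-induced protein of the endoplasmic reticulum, had 227 and 199.5 against 119.7 and 120.0 CPM (0.81 ± 0.23, adjusted p = 0.155), and Rhoc, a small GTPase of the cytoskeleton, had 61.2 and 85.3 against 35.6 and 34.8 CPM (1.02 ± 0.31, adjusted p = 0.18). In these 4 genes both miR-290 KO libraries were higher. Irf2, an interferon regulatory factor, had 3.27 and 1.69 against 0.138 and 0.478 CPM (2.52 ± 0.70, adjusted p = 0.149). Lefty1, a secreted inhibitor of Nodal, is counted with reads it may share with Lefty2, so only its deposited log2 values are given: 7.98 and 8.92 in the miR-290 KO and 5.73 and 7.14 in the miR-302 KO (log2 difference 2.01, SE 0.44, adjusted p = 0.0647).

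Another set of reported targets differed little between the 2 knockouts. The 2 members of the list with both miR-290 KO libraries lower were Rbl2, given here, and Rbl1 (log2 difference −0.41). Lats2, a kinase of the Hippo pathway, had 12.6 and 12.1 CPM in the miR-290 KO and 13.2 and 12.1 CPM in the miR-302 KO (log2 difference −0.045, SE 0.54, adjusted p = 0.988). Rbl2, a pocket protein that restrains E2F factors, had 6.07 and 5.15 against 6.85 and 6.99 CPM (−0.31 ± 0.55, adjusted p = 0.879), Tob2 had 35.2 and 35.1 against 31.5 and 37.9 CPM (0.00965 ± 0.30, adjusted p = 0.997), and Wee1, the kinase that delays mitosis, had 75.7 and 97.3 against 83.5 and 104 CPM (−0.13 ± 0.23, adjusted p = 0.878). In iPSC the differences of Lats2 (1.90), Rbl2 (1.36) and Tob2 (0.86) were larger, but the departure between cell types was not called for any gene.

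The sites below show the letters that the shared seed can pair with in members of the list. They are 30 bases of the longest annotated 3′UTR (GENCODE M21, build mm10), 5′ to 3′ on the strand of the gene, with the match in capitals. AGCACTT pairs with the seed, and AGCACTTA has 1 more A after it.
Cdkn1a, chr17:29100482-29100511, plus strand: gaataccgtgggtgtcaaAGCACTTAgtgg
Rhoc, chr3:104794313-104794342, plus strand: ttccccatattacacaccAGCACTTtatat
Dazap2, chr15:100619524-100619553, plus strand: aagacatcacataccttcAGCACTTctcac
Ei24, chr9:36779884-36779913, minus strand: ttttccagctgtttttttAGCACTTgccag
Irf2, chr8:46846646-46846675, plus strand: ttctgcaccttatcttgaAGCACTTAcaat
Lefty1, chr1:180938195-180938224, plus strand: tcactgcactgtatgcgaAGCACTTAcatg
Lats2, chr14:57691082-57691111, minus strand: ttagtacagtatggaaagAGCACTTAtttt
Rbl2, chr8:91123812-91123841, plus strand: atgtgtatttttcaataaAGCACTTAtaaa
Tob2, chr15:81850132-81850161, minus strand: tgtgactatagggaggttAGCACTTtttct
The first 6 belong to genes with higher values in both miR-290 KO libraries, and the last 3 to genes without. Of the last 3, Rbl2 had both miR-290 KO libraries lower. Both sets hold 7-base and 8-base matches. The 3′UTR used for Dkk1 holds no match. Of the 20 members, 16 had a match (median difference 0.66) and 4 had none (0.94). A match is a description of letters and was not tested as a site.

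Across all genes the 8-base match went with a small shift. The motifs AGCACTT and AGCACTTA were searched on the transcript strand only, and 17.4% of the 11792 genes with a 3′UTR held AGCACTT. The longer AGCACTTA was held by 3.58% of the 11792. The median ESC difference was 0.19 in 422 genes with the 8-base match, 0.069 in 1633 genes with the 7-base match only and 0.068 in 9737 genes without a match. Taking each miR-290 KO library against each miR-302 KO library, the median ran from 0.15 to 0.23 for the 8-base match and from 0.029 to 0.11 for no match, so those ranges did not meet. Genes with the 8-base match have long 3′UTRs (median 2902 bases, against 945 without a match). Among genes with a 3′UTR of up to 1150 bases, the medians were 0.31 (8-base, 59 genes), 0.24 (7-base only, 273 genes) and 0.083 (no match, 5565 genes). Above that length they were 0.16, 0.045 and 0.049. The part of 3′UTR length and of expression level in these medians was not tested. Of the 65 called genes with a 3′UTR, 11 held a match, 16.9%, near the 17.4% of all genes.

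**Figure D3:**
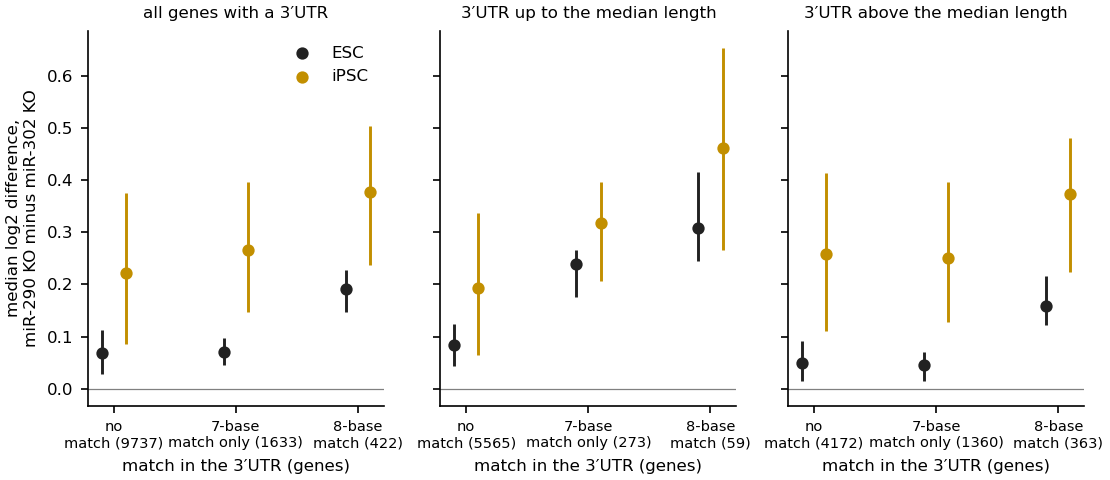
Median log2 difference between miR-290 KO and miR-302 KO (vertical axis) for genes grouped by the longest match to the shared seed in their 3′UTR (horizontal axis, number of genes in brackets), for all genes and for shorter and longer 3′UTRs. Points are medians of the mean difference and lines span the medians of the 4 pairs of libraries (ESC) or of colonies (iPSC). The 8-base class is highest in each panel, at 0.19, 0.31 and 0.16 in ESC.

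Naive pluripotency genes, which hold ESC in their ground state, gave 1 call among 25 genes listed, all in the matrix (Nr5a2, above). In 11 both miR-290 KO libraries lay below both miR-302 KO libraries (18.8% of all genes did), in 3 above (27.8%), and in the other 11 the groups overlapped. The median difference was −0.094, and 6 genes were at an unadjusted p under 0.05, as were 1632 of all 12778 genes. Klf4, a factor downstream of LIF, had 150.1 and 118 against 246 and 294 CPM (−1.03 ± 0.38, adjusted p = 0.266), Prdm14, a repressor that protects the naive state, had 12.7 and 7.299 against 26.8 and 14.8 CPM (−1.05 ± 0.40, adjusted p = 0.281), and Nanog had 669.7 and 625 against 1188 and 866 CPM (−0.66 ± 0.29, adjusted p = 0.366). Dppa3, which protects maternal methylation marks, had the opposite direction, with 42.3 and 56.9 against 22.4 and 6.87 CPM (1.95 ± 0.66, adjusted p = 0.229). None of these 4 passed the threshold.

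The formative and primed list, genes that come up as ESC leave the naive state, had 18 of 19 genes in the matrix and 1 call, Car4 (above), with a median of 0.15. Otx2, a driver of that transition, had 2.87 and 6.84 against 33.9 and 11.8 CPM (−2.14 ± 0.58, adjusted p = 0.136). Lef1, a Wnt effector, had 24.3 and 27.04 against 3.95 and 10.99 CPM (1.92 ± 0.48, adjusted p = 0.108), and Etv4, a target of ERK signalling, had 32.6 and 13.5 against 2.35 and 5.79 CPM (2.44 ± 0.82, adjusted p = 0.231). The 3 values pointed in both directions and none was called.

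Most epithelial genes had higher values in the miR-290 KO ESC. Of 20 listed, 19 were in the matrix, 18 had a positive difference, 14 had both miR-290 KO libraries above both miR-302 KO libraries (27.8% of all genes did), and 1 had the reverse (18.8%). Their median was 1.12 and in iPSC 0.77, and 1, Krt8, was called. Krt18, the partner of Krt8 in its filaments, had 102 and 229.8 CPM in the miR-290 KO and 13.3 and 19.5 CPM in the miR-302 KO (log2 difference 3.23, SE 0.77, adjusted p = 0.0919). Cldn7, a claudin of tight junctions, had 5.54 and 7.62 against 0.485 and 1.25 CPM (2.79 ± 0.61, adjusted p = 0.0679), Cldn4 had 254 and 298 against 163 and 108 CPM (1.04 ± 0.31, adjusted p = 0.18), and Epcam, an epithelial adhesion molecule, had 119 and 147 against 66.7 and 67.8 CPM (0.96 ± 0.35, adjusted p = 0.263). The adherens junction gene Cdh1, the most abundant of the list, was the exception with 555 and 569 against 673 and 704 CPM (−0.31 ± 0.66, adjusted p = 0.906). Of the trophoblast markers, 8 of 12 were in the matrix, with a median of 1.23, and 1 was called (Krt7). In 5 both miR-290 KO libraries were higher (27.8% of all genes) and in none were both lower (18.8%). The difference was positive in 7, while Eomes was negative (−0.25) with the groups overlapping. The recovered markers summed to 195 and 283 CPM in the miR-290 KO and 176 and 89.8 CPM in the miR-302 KO. Cdx2, a defining factor of that lineage, had 5.67 and 5.604 against 2.01 and 2.09 CPM (1.38 ± 1.19, adjusted p = 0.694), and Elf5, Plac1, Tpbpa and Prl3d1 were not analysed here.

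Most markers of fibroblasts or feeder cells had higher values in the miR-290 KO ESC. Of 16 listed, 9 were in the matrix and none was called (5 at an unadjusted p under 0.05), with a median of 0.59. In 7 the difference was positive. In 4 both miR-290 KO libraries lay above both miR-302 KO libraries (27.8% of all genes did), and in 1 they lay below (18.8%). The contractile genes Acta2 (27.3 and 15.9 against 0.208 and 0.956 CPM; 5.02 ± 1.15, adjusted p = 0.0762) and Tagln (12.5 and 15.6 against 0.831 and 0.239 CPM; 4.47 ± 1.01, adjusted p = 0.0736) were higher in both miR-290 KO libraries. Col1a1, the main fibroblast collagen, was the 1 that was higher in both miR-302 KO libraries, with 0.133 and 0.1303 against 5.75 and 2.15 CPM (−3.66 ± 1.07, adjusted p = 0.172). All 9 together summed to 65.2 and 64.6 CPM in the miR-290 KO and 34.5 and 19.1 CPM in the miR-302 KO. Primitive endoderm markers had 8 of 14 in the matrix, none called (3 at an unadjusted p under 0.05), and a median of 0.49. Gata6 and Sox17 were not analysed here. The difference was positive in 5 of the 8. It was negative in Gata4 (−0.30), Dab2 (−0.62) and Lama1 (−0.82), with the groups overlapping in all of them. Both miR-290 KO libraries lay above both miR-302 KO libraries in 3 markers (27.8% of all genes) and below them in none (18.8%). Among these were the basement membrane collagens Col4a2 (20.1 and 33.95 against 13.8 and 3.52 CPM; 1.86 ± 0.59, adjusted p = 0.202) and Col4a1 (41.8 and 66.5 against 34.7 and 21.98 CPM; 0.91 ± 0.34, adjusted p = 0.272), while the groups overlapped in Amn (1.38 ± 0.97). The part of other cell types in the differences above was not tested, and in bulk RNA fewer cells of a type and less RNA per cell cannot be told apart.

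Most germline genes had lower values in the miR-290 KO ESC. Of 24 listed, 20 were in the matrix, with a median of −1.14 (−0.68 in iPSC). In 11 both miR-290 KO libraries lay below both miR-302 KO libraries, against 18.8% of all genes, and in 2 they lay above. Called were Sycp1, a protein of the synaptonemal complex of meiosis, with 1.87 and 3.91 CPM in the miR-290 KO and 23.4 and 21.6 CPM in the miR-302 KO (log2 difference −2.99, SE 0.47, adjusted p = 0.0203), and Fkbp6, a chaperone of the germline small RNA pathway, with 2.67 and 2.22 CPM in the miR-290 KO and 52.6 and 17.9 CPM in the miR-302 KO (log2 difference −3.59, SE 0.61, adjusted p = 0.0263). Dazl, an RNA-binding protein of germ cells, had 16.3 and 10.4 against 46.4 and 39.5 CPM (−1.71 ± 0.40, adjusted p = 0.0827), and Hormad1, of the meiotic chromosome axis, had 6.27 and 13.03 against 28.9 and 31.1 CPM (−1.73 ± 0.65, adjusted p = 0.28). Rhox5, an X-linked homeobox gene, had 12.1 and 9.71 against 293 and 19.6 CPM (−2.80 ± 1.06, adjusted p = 0.281). For Rhox5, replicate 1 of the miR-302 KO stood far above the other 3 libraries.

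The listed imprinted genes, which are expressed from 1 parental copy, gave large differences and no call. Of them, 14 were at an unadjusted p under 0.05 (1632 of all 12778 genes were). Dio3, an imprinted gene outside the list, was called lower in the miR-290 KO ESC (log2 difference −1.52, adjusted p = 0.0423 in limma). Its call was made in 6 of 21 alternative fits. Of 39 listed, 34 were in the matrix, 15 had both miR-290 KO libraries higher (27.8% of all genes did) and 8 lower (18.8%), and the median was 0.37. Igf2, a fetal growth factor, had 159 and 442 CPM in the miR-290 KO and 8.86 and 21.1 CPM in the miR-302 KO (log2 difference 4.25, SE 0.96, adjusted p = 0.0736). Cdkn1c, a growth inhibitor of the same chromosome region, had 47.4 and 93.8 CPM in the miR-290 KO and 2.35 and 9.74 CPM in the miR-302 KO (log2 difference 3.73, SE 0.78, adjusted p = 0.0557). H19 had 370.0 and 1021 against 114 and 155 CPM (2.19 ± 0.84, adjusted p = 0.286), Grb10, an inhibitor of insulin signalling, had 94.6 and 106 against 22.6 and 16.2 CPM (2.36 ± 0.51, adjusted p = 0.0647), and Phlda2, which limits placental growth, had 46.9 and 89.8 against 9.62 and 23.4 CPM (2.09 ± 0.43, adjusted p = 0.0551). In these 5 genes all miR-290 KO ESC libraries were higher, and their iPSC differences were 4.81, 3.66, 1.25, 3.62 and 1.42. The noncoding RNAs of the Meg3 region had both miR-290 KO ESC libraries slightly higher. Meg3 had 513 and 414 against 299 and 390.0 CPM (0.42 ± 1.43, adjusted p = 0.945), Rian had 119.7 and 112 against 74.8 and 84.8 CPM (0.52 ± 1.08, adjusted p = 0.9) and Mirg had 22.01 and 24.8 against 10.3 and 16.6 CPM (0.81 ± 1.38, adjusted p = 0.872). In iPSC their differences had the opposite sign, at −3.52, −2.54 and −3.35, and the departure between cell types was not called for any gene. Over all members, 20 of 34 had the same sign in iPSC as in ESC.

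**Figure D4:**
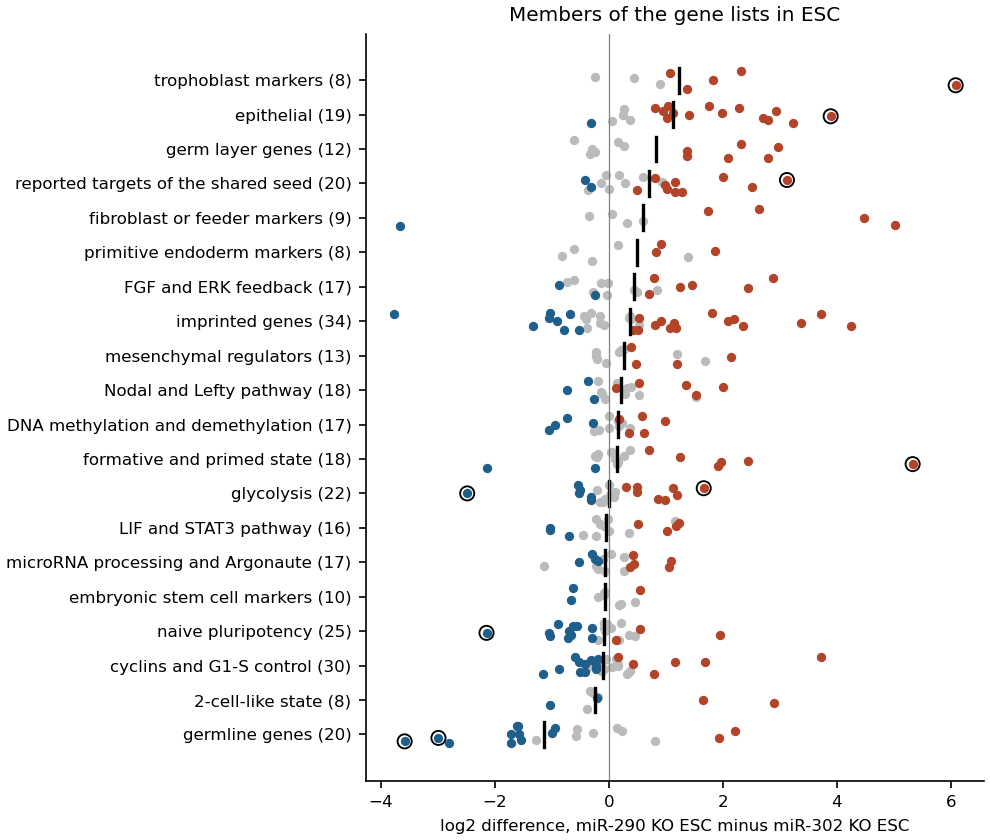
Each point is 1 gene of the list on the vertical axis, placed at its log2 difference between miR-290 KO and miR-302 KO ESC. Red and blue points have both miR-290 KO libraries above or below both miR-302 KO libraries, grey points overlap, open circles mark called genes, and black bars mark medians, which run from −1.14 (germline genes) to 1.23 (trophoblast markers); numbers of genes are in brackets.

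Of the signalling and cell cycle lists, none had a called gene except glycolysis. Glycolysis had 22 of 22 genes in the matrix and a median of 0.0088, with Pfkp called lower in the miR-290 KO (above) and Pdk1 called higher. Pdk1, a kinase that restrains pyruvate entry to the mitochondrion, had 86.6 and 104 CPM in the miR-290 KO and 32.7 and 26.8 CPM in the miR-302 KO (log2 difference 1.66, SE 0.31, adjusted p = 0.0397). The other phosphofructokinases Pfkl (144 and 169.7 against 248 and 107 CPM) and Pfkm (36.2 and 28.9 against 27.1 and 24.97 CPM) were not called. Among 30 cyclin and G1-S genes, with a median of −0.11 and 4 at an unadjusted p under 0.05, Ccnd2, a D-type cyclin, had 25.9 and 26.3 against 7.41 and 8.36 CPM (1.69 ± 0.37, adjusted p = 0.0688). The lists of Nodal and Lefty (median 0.21), FGF and ERK feedback (0.45), LIF and STAT3 (−0.046), DNA methylation (0.16), microRNA processing (−0.070), mesenchymal regulators (0.26), germ layer genes (0.82) and the 2-cell-like state (−0.25) held no call in limma. At an unadjusted p under 0.05 these 8 lists held 4, 4, 2, 3, 3, 1, 3 and 1 genes. Within them, Lin28b, which blocks let-7 maturation, had 20.1 and 24.5 against 8.17 and 12.8 CPM (1.09 ± 0.36, adjusted p = 0.227), Dusp6, a phosphatase induced by ERK, had 21.2 and 15.6 against 9.07 and 4.54 CPM (1.46 ± 0.60, adjusted p = 0.331), Vim had 422 and 299 against 198 and 118 CPM (1.20 ± 0.33, adjusted p = 0.146), and Pax6, a neural factor, had 2.47 and 6.19 against 0.623 and 0.179 CPM (2.97 ± 0.66, adjusted p = 0.0688).

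Other genes with the largest differences of their lists were not called, and their values are given as log2 differences ± SE in the order of the lists. Acvr1b, a type I activin receptor with low values in all 4 libraries, differed by 1.53 ± 1.04. Dusp4, a phosphatase of ERK, differed by 2.89 ± 0.83. Gbx2, Junb and Socs3 of the LIF list differed by 1.23 ± 0.63, 1.18 ± 0.73 and 1.16 ± 0.54. Mbd2, a reader of methylated DNA, differed by 0.98 ± 0.38, and Tet2, an enzyme that oxidizes methylcytosine, by −0.94 ± 0.33. These pointed towards the miR-290 KO except for Tet2. In the 2-cell-like list, Zscan4d, a member of a family of near copies, differed by 2.90 ± 1.53, Zfp750 by 1.65 ± 0.73 and Arg2 by −1.04 ± 0.91. Among microRNA and let-7 pathway genes, Trim71 differed by −1.13 ± 0.76, with replicate 2 of the miR-302 KO above the other 3 libraries (14.3 and 10.1 against 12.3 and 55.8 CPM), and Dis3l2 by 1.06 ± 0.39. Pfkfb3, which makes the activator of phosphofructokinase, differed by 1.19 ± 0.61, Krt19 by 2.93 ± 1.13, Tgfb2 by 2.15 ± 1.01, Twist1 by 1.69 ± 1.10, Cxcr4 by 2.79 ± 0.85 and Hand1 by 2.32 ± 1.08. The imprinted Peg13 differed by −3.77 ± 1.56 with 0.4002 and 0 against 4.85 and 3.17 CPM. Of the trophoblast markers, Esx1 differed by 1.83 ± 0.68. Of 5 genes at or beside the deleted loci none was called and none was at an unadjusted p under 0.05. Both miR-290 KO libraries lay above both miR-302 KO libraries in 2 (27.8% of all genes did) and below them in 2 (18.8%). The first were Camk2d (0.67 ± 0.61) and Larp7 (0.18 ± 0.22), the second AU018091 (−0.55 ± 0.64) and Zgrf1 (−0.38 ± 0.27).

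Whole chromosomes also differed between the ESC libraries. Over 7895 genes with a mean deposited value above 3, the median difference was 0.023 and 52.6% were positive. On chromosome 11, 73.7% of 650 genes were higher in the miR-290 KO, with a median of 0.22 and a range of 0.17 to 0.25 over the 4 pairs of libraries. On chromosome 14, 31.3% of 268 genes were higher, with a median of −0.23 and a range of −0.26 to −0.24 over the pairs. On chromosome 8 the median was −0.16 (461 genes), but the miR-302 KO replicates differed there by −0.22, and on the X they differed by 0.36. These chromosomes were noticed after the values were seen. Of the 1049 genes of chromosome 11 in the matrix, 6 were called higher and 1 lower. Of the 428 on chromosome 14, 3 were called higher and 4 lower. Over all 12778 genes, 0.376% were called higher and 0.211% lower. With chromosomes 8, 11, 14, X and Y left out of the fit, 34 of the called genes were still called, out of 48 on the other chromosomes. The part of chromosome content in single genes was not tested.

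**Figure D5:**
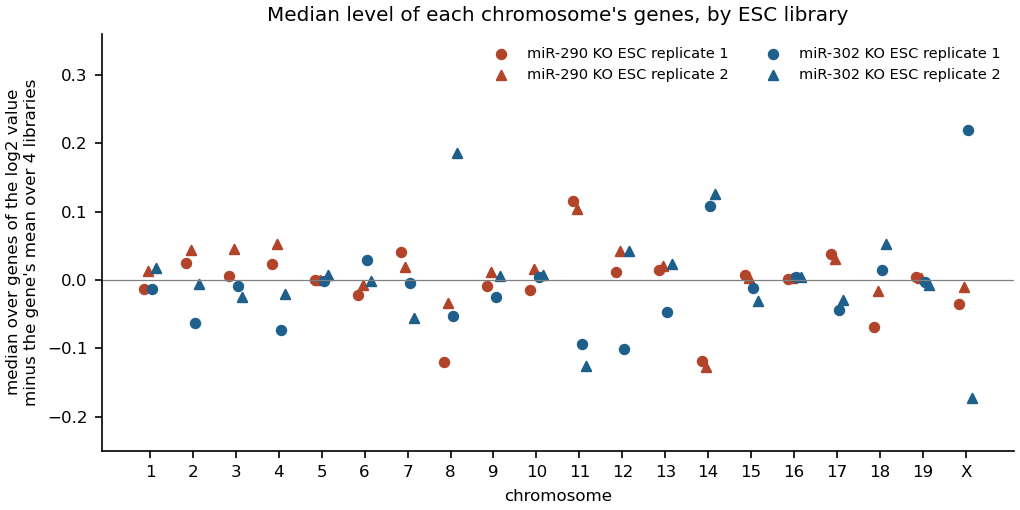
Median over the genes of each chromosome (horizontal axis) of the deposited log2 value minus the gene's mean over the 4 ESC libraries (vertical axis, log2 scale), for each library. The groups lie apart on chromosomes 11 and 14, and the miR-302 KO replicates lie apart from each other on the X (0.22 and −0.17) and on chromosome 8.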

How the data were processed

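The authors prepared QuantSeq 3′ FWD libraries from total RNA and sequenced single-end 50 bp reads, per the labels' protocols. Per the submitters' processing notes, Trim Galore 0.66, STAR, Salmon 1.4.0, limma and DESeq2 1.34.0 were used with mm10; their order and the annotation are not given in the sources used here. The deposited matrix holds log2 values per gene for the 19 libraries and 6 columns of no sample of the series, which were not used.

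Each gene's values fit log2 of whole reads plus a library's prior (0.909 to 3.52 reads), shifted by a constant per gene. Whole reads were recovered within 0.02 read for 12240 of 12778 genes (95.8%; 99.6% of their values), and CPM was computed from them. Tests used the deposited log2 values in limma 3.58.1 (R 4.3.3): 13 samples in 6 groups, a trend on the mean, 7 residual degrees of freedom, and Benjamini-Hochberg adjustment over all genes. A log2 difference is on the log2(reads + prior) scale and understates changes of low genes. The fit was tested on simulated data. The multi-mapping rule is not known, so near-identical genes are uncertain. The names of 19 genes read as calendar dates, a spreadsheet change, and were kept as deposited. Intervals and floors (3 reads over a group) cover counting error only.

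Named were, per direction, the 12 called genes with the largest difference and no overlap (no Gm or Rik symbols), called list members and the 3 largest of each list, and 5 genes that also lay apart in iPSC; other genes named were chosen after their values were seen. One gene that this rule selects is not reported here. The comparison and the 22 gene lists were chosen with earlier results of these data known. Chromosomes and coordinates are from RefSeq (GRCm38.p6) and GENCODE M21. Alternatives are given at the end.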

Additional observations from a re-analysis of the deposited data

How the results depend on the processing

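The number of called genes (75) moved under several settings. No called gene changed sign under the 21 alternatives counted per gene, but these could hardly show a change. Most leave the ESC difference itself as it is. Because the groups do not overlap in any of the 75 genes, leaving out 1 ESC library cannot reverse a sign. The number of calls was 0 with the 4 ESC libraries alone and 9 with each of the 19 libraries as a sample. It was 34 with the genes of chromosomes 8, 11, 14, X and Y left out, an alternative chosen after seeing the data, which also tested fewer genes. Leaving out 1 ESC or WT library or 1 iPSC colony gave 4 to 357 calls, with 37 without miR-290 KO iPSC colony 1 or colony 2, 38 without WT iPSC replicate 1 and 41 without WT iPSC replicate 3. With estimated weights it was 79, with median-of-ratios scaling 72, with a filter of at least 1 CPM in 2 ESC libraries 75 and with a prior of 5 reads 95. The count of genes whose ESC difference departed from the iPSC difference was 0 in all settings except without miR-290 KO iPSC colony 1 (4) and without miR-302 KO iPSC colony 2 (5), so leave-one-out values ran from 0 to 5. The cause was not tested.

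The replicate numbers of the ESC do not pair the samples: deviations of replicate 1 from the group means correlated at −0.076. With the replicate number as a block, 53 genes were called, 47 of them among the 75, and none departed from iPSC. Of the 607 values of the 29 called genes named by the rule, 408 kept the call and 199 lost it. Of the 49 other genes named by it, 13 gained a call in 22 of 1022 values: Acta2, Ccnd2, Cdkn1a, Cdkn1c, Col4a2, Cxcr4, Dusp4, Esx1, Igf2, Krt18, Lefty1, Pax6 and Tagln. Lefty1 had an adjusted p of 0.0232 with the block and 0.0386 without miR-302 KO ESC replicate 2. Of the 75 called genes, 2 (Ddx3y and Mid1) kept it without each ESC library in turn. Without miR-302 KO ESC replicate 1, 57 of the 75 were among the 357. With 2 libraries a group, genes of a few reads are limited by counting, and modest differences by the spread.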
